A study of Mus musculus with 16 samples.

Results

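The genes described here are 9 genes that mark lymphatic endothelium: Prox1, Lyve1, Pdpn, Flt4, Ccl21a, Mmrn1, Reln, Sema3d and Thy1. They were taken by name from the study's merged RNA-seq gene table, in which all 9 were found among 43346 genes, and they were not selected by a threshold on any measured value. RNA-seq was carried out on sorted lung endothelial cells (ECs) from 16 mice of the FVB strain, all carrying the Col1α1-GFP reporter, a transgene that labels collagen-producing cells green. The study's methods name both sexes, and the sex behind each library was not given in the sources used here. Young Sham mice (2 months old, n = 5) and Aged Sham mice (18 months old, n = 3) were given PBS, a buffered saline, and no bleomycin. Young Bleo mice (2 months old, n = 4) and Aged Bleo mice (18 months old, n = 4) were given intratracheal bleomycin, a drug that injures the alveoli and leads to lung fibrosis, and lungs were taken 30 days after delivery. Cells were sorted as CD31-positive after removal of cells positive for CD45, EpCAM or GFP, a gate that admits blood and lymphatic ECs together and does not separate them. The study treated each library as 1 mouse. The labels list each as a separate sample without saying more, so p-values measure the spread between these samples.

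Lymphatic ECs line the vessels that drain fluid and immune cells from tissues. Their identity is set and held by the transcription factor PROX1, their growth is driven by the ligands VEGF-C and VEGF-D through the receptor VEGFR-3 (the product of Flt4), and they draw dendritic cells and T cells inward by secreting the chemokine CCL21. In the lung they are a minor population beside the capillary ECs, so a bulk measurement of sorted ECs holds their transcripts as a small part of the whole. In such bulk samples, fewer lymphatic cells and less RNA per lymphatic cell cannot be told apart.

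Ccl21a needs a remark before its values, because mouse chromosome 4 carries near-identical copies of it. In the coding sequence, 402 bases long in the reference transcripts (GENCODE, GRCm38), Ccl21a and Ccl21b differed at 2 positions, T84A and C194T, counted from 1 at the A of the start codon with the Ccl21a base first. The stretch from base 75 to base 203 of each coding sequence is shown because it holds both differences, which are in capitals.
Ccl21a: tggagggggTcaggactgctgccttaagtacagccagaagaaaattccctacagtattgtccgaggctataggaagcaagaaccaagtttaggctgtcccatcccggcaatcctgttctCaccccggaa
Ccl21b: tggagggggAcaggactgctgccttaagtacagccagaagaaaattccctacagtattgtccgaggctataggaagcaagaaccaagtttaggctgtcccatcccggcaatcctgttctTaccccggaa
The rest of this stretch is identical, and 50.3% of the 100-base windows of the Ccl21a transcripts were also found in transcripts of other genes, so how reads were divided among the copies depended on the counting. Ccl21a held between 93.2% and 99.5% of the counts assigned to Ccl21a, Ccl21b, Gm13304 and Gm21541 in the 16 libraries. The share was 98.7% in Young Sham replicate 25, 99.5% and 99.4% in Young Bleo replicates 17 and 20, and 99.4% in Aged Bleo replicate 1. Every other library was at 95.9% or lower, and the reason for this split was not tested. With the 4 copies summed, the ratio of the Young Bleo mean to the Young Sham mean was 3.58, against a fitted 3.65-fold difference for Ccl21a alone. Because Ccl21a held most of these counts, this sum could not test how reads were divided. Any reads left out of the counting are not in it. None of the other members shared more than 0.405% of its windows, the share of Prox1 with its antisense gene Prox1os.

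Total gene counts were between 20.9 and 71.0 mega-counts per library, and every member had at least 32 counts in every library. No gene of an 8-gene pan-endothelial list was at 0 throughout a group. The lists of other cell types met this too, except Wt1 of the mesothelial list in Young Sham, so it does not identify the cells. The summed FPKM (fragments per kilobase and mega-fragment) of the pan-endothelial list in Young Sham, Young Bleo, Aged Sham and Aged Bleo was 1962 to 2102, 1019 to 1567, 1644 to 1810 and 976 to 1598. Markers of other cell types also differed between groups. Summed FPKM of 6 mesothelial genes was 0.629 to 2.65 in the Young Sham libraries, 6.61 to 18.0 in those of Young Bleo, 4.80 to 14.9 for Aged Sham and 1.26 to 8.32 for Aged Bleo. Summed FPKM of 8 macrophage genes was 2.82 to 5.12, 9.56 to 40.0, 4.04 to 25.7 and 15.7 to 112 in the same order of groups, and that of 6 platelet and megakaryocyte genes was 274 to 516, 111 to 250, 634 to 3417 and 66.1 to 487. Summed FPKM of 6 fibroblast genes was 13.1 to 31.8, 17.8 to 30.9, 14.5 to 25.8 and 6.83 to 11.7.

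**Figure D1:**
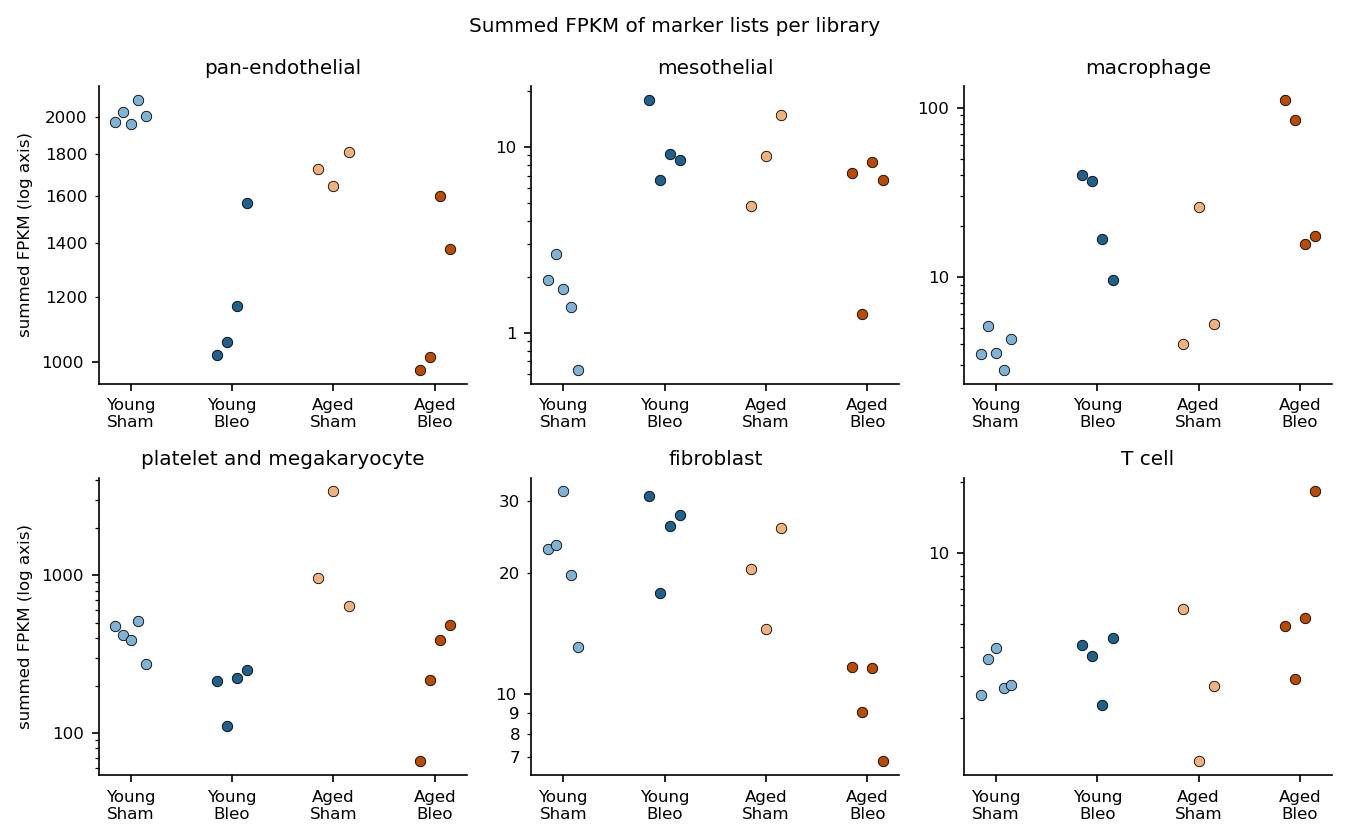
Summed FPKM (log axis) of 6 marker lists, 1 point per library, for the 4 groups. All Young Bleo and Aged Sham libraries lie above the Young Sham range for the mesothelial list, and Aged Bleo replicates 1 and 2 are the highest for the macrophage list.

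Per unit of transcript length, the level of Ccl21a was 1217 times that of Prox1. Mean FPKM over the 16 libraries was 473 for Ccl21a, 32.2 for Lyve1, 6.49 for Mmrn1, 4.79 for Flt4, 2.52 for Pdpn, 0.592 for Thy1, 0.389 for Prox1, 0.359 for Reln and 0.295 for Sema3d. Ccl21a was above Lyve1, and Lyve1 above the next gene, without overlap of libraries in each of the 4 groups. Mmrn1 and Flt4 overlapped in every group, and so did Prox1, Reln and Sema3d with the gene next to them in the order, so the order within those sets is not resolved. Prox1, the transcription factor that defines the lineage, was among the lowest of its markers, with a group mean of 0.274 FPKM in Young Sham and 0.679 after bleomycin at that age, and of 0.185 FPKM in Aged Sham and 0.395 after bleomycin.

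Young Bleo was first compared with Young Sham, to ask how injury changed these genes in young lungs. Of the 9 members, 5 were called higher and 0 lower (DESeq2, adjusted p at most 0.05 and a log2 fold change of at least 0.5 in size), where 7.57% of all genes tested were called higher and 6.35% lower. These were Ccl21a, Sema3d, Pdpn, Reln and Prox1. With edgeR's quasi-likelihood test 4 were called higher, all of these but Prox1, where 5.69% of all genes were called higher. All 9 log2 fold changes were above 0, with a median of 1.19 against 0.01 over all genes tested. Beside this, the mesothelial list had a median of 3.64 (4 of 6 genes called higher) and the macrophage list 2.33 (4 of 8). A list of 5 leukocyte genes had 1.98 (3 of 5). The alveolar type 1 list had -1.88 (4 of 6 called lower) and the pericyte and smooth muscle list -1.47 (3 of 6). The part of RNA from these cells in the members' values was not tested.

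Ccl21a (chr4:42772860-42773993, mm10) encodes the chemokine that recruits CCR7-bearing dendritic cells and T cells into lymphatic vessels. Its normalized counts (counts divided by DESeq2 size factors) were 22742, 22828, 19298, 22164 and 28870.5 in Young Sham replicates 21 to 25, and 126020.0, 55924, 100565 and 55494 in Young Bleo replicates 17 to 20. The lowest Young Bleo library stood above the highest Young Sham library. The log2 fold change was 1.87 (SE 0.271, DESeq2 adjusted p = 2.55e-09, edgeR adjusted p = 0.00136), a 3.65-fold difference, and the call held when each library was left out in turn.

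Pdpn (chr4:143267431-143299564) encodes podoplanin, a mucin-type surface glycoprotein that binds the platelet receptor CLEC-2 and is also made by alveolar type 1 cells, mesothelial cells and some fibroblasts. Normalized counts were 217, 199, 258, 309 and 239 in Young Sham and 1122, 605, 1065 and 652 in Young Bleo. The groups did not overlap, and the 2 Young Bleo libraries highest for Pdpn, replicates 17 and 19, were also the highest for Ccl21a. Pdpn was 1.82 higher on the log2 scale (SE 0.347, DESeq2 adjusted p = 1.04e-05, edgeR adjusted p = 0.00459). Beside this result, the 6 alveolar type 1 genes summed to 178 to 243 FPKM in Young Sham and to a lower 18.7 to 73.6 in Young Bleo, while the mesothelial sum was higher in every Young Bleo library than in any Young Sham library. The part of mesothelial RNA in the Pdpn difference was not tested.

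Sema3d (chr5:12383166-12588943) encodes a secreted semaphorin, a guidance cue. Normalized counts were 50.04, 101, 141, 51.5 and 31.3 in Young Sham and 566, 238, 395 and 322 in Young Bleo, again without overlap. The log2 fold change of 2.35 (SE 0.502, DESeq2 adjusted p = 0.000104, edgeR adjusted p = 0.00945) was the largest among the 9 genes. Its lower 95% bound of 1.37 lay below the estimates of Ccl21a and Pdpn. Mesothelial sums in Young Bleo replicates 17 to 20 were 18.0, 6.61, 9.11 and 8.52 FPKM, the same order of libraries as for Sema3d. The part of mesothelial RNA in the Sema3d difference was not tested.

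Reln (chr5:21884454-22344702) encodes reelin, a large secreted glycoprotein best known from the brain and also made by lymphatic endothelium. Normalized counts were 529.7, 604, 371, 274 and 816 in Young Sham and 1672, 881, 1257 and 945 in Young Bleo. The lowest Young Bleo library was above the highest Young Sham library by a small margin. The difference was 1.19 on the log2 scale (SE 0.322, DESeq2 adjusted p = 0.00314, edgeR adjusted p = 0.0223). The Young Bleo libraries had the same order for Reln as for the mesothelial sum. The part of mesothelial RNA in the Reln difference was not tested.

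Prox1 (chr1:190118035-190170714) encodes the homeobox transcription factor that specifies lymphatic fate. Normalized counts were 99.1, 288, 410.1, 80.7 and 269 in Young Sham and 505, 300.5, 421 and 1002 in Young Bleo. The groups overlapped, since Young Bleo replicate 18 was below Young Sham replicate 23. Prox1 rose by 1.29 on the log2 scale (SE 0.450, DESeq2 adjusted p = 0.0318), but edgeR's adjusted p was 0.0758. The call was lost without Young Bleo replicate 17 (adjusted p = 0.0646), Young Bleo replicate 20 (0.193), Young Sham replicate 21 (0.0869) or Young Sham replicate 24 (0.0733).

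The other 4 members were not called in this or any other pairwise comparison. Mmrn1, which encodes multimerin-1, a secreted protein of lymphatic endothelium that is also stored in platelets, had normalized counts of 2483, 3716, 3801, 1813 and 2346 in Young Sham and 8844, 3157, 3507 and 6869.9 in Young Bleo. Its log2 fold change was 0.98 (95% interval 0.22 to 1.75, DESeq2 adjusted p = 0.0669), and leaving out Young Bleo replicate 18 or 19 made it a call (adjusted p = 0.0390 and 0.0486), as did a fit of these 2 groups alone (adjusted p = 0.0147). Lyve1, the hyaluronan receptor that is also found on some macrophages, had a log2 fold change of 0.55 (95% interval -0.00283 to 1.10, adjusted p = 0.189). Flt4, the receptor for VEGF-C and VEGF-D, had 0.22 (-0.28 to 0.71, adjusted p = 0.651). Thy1, a surface glycoprotein that T cells and fibroblasts share with lymphatic ECs, had 0.60 (-0.39 to 1.59, adjusted p = 0.498).

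**Figure D2:**
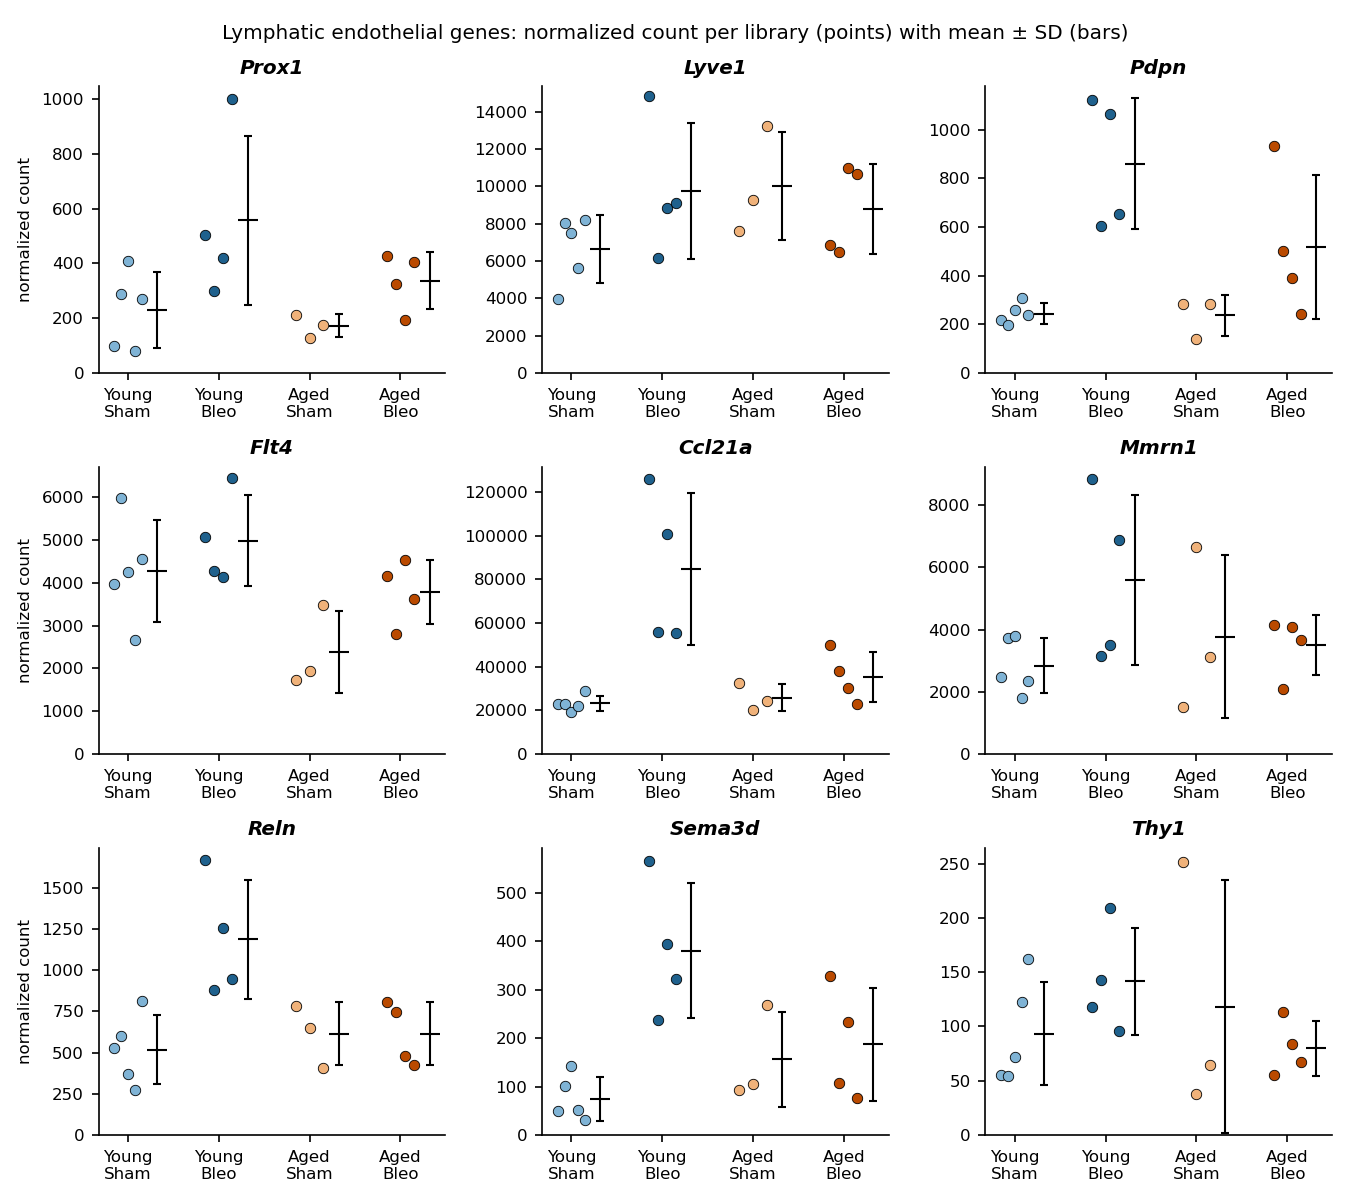
Normalized count of each member in each library (points), with the group mean ± SD beside them (linear axes from 0). For Ccl21a, Pdpn, Sema3d and Reln all 4 Young Bleo libraries lie above all 5 Young Sham libraries, while Lyve1 and Thy1 overlap between all groups.

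The promoters of 7 of the 9 members were matched in a RefSeq promoter table of the same build (GRCm38.p6). The 250 bases before the start site are shown for Ccl21a, Pdpn and Reln, which rose in Young Bleo. They were searched on both strands for AGGAAG, a core of the letters read by ETS factors, and for AACAAT, a core read by SOX factors, and matches are in capitals. Neither motif holds the other.
Ccl21a (chr4:42773992-42774241, minus strand): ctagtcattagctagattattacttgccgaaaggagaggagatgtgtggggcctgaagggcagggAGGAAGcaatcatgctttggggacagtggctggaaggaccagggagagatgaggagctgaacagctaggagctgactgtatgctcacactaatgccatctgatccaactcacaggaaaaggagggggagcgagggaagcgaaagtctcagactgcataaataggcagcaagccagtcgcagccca
Pdpn (chr4:143299565-143299814, minus strand): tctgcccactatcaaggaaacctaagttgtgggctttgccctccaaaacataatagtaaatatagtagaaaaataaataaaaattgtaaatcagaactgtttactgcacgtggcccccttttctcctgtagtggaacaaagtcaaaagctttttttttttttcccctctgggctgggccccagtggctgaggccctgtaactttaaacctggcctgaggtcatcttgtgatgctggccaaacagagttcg
Reln (chr5:22344706-22344955, minus strand): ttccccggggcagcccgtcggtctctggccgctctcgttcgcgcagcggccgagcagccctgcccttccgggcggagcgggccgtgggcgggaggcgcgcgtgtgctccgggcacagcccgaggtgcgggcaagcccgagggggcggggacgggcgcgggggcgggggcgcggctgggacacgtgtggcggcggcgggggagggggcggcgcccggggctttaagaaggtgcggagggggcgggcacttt
Among the members matched, AGGAAG was found upstream of Ccl21a, 185 bases before the start, and AACAAT upstream of Mmrn1, 231 bases before it. AGGAAG was found in 29.5% and AACAAT in 9.42% of 32851 promoter windows of this length. The windows also differed in composition, with 4 CpG dinucleotides upstream of Ccl21a, 2 upstream of Pdpn and 37 upstream of Reln. A match is a description of the letters and not of binding.

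Aged Sham was compared with Young Sham, to ask how age alone changed the genes. No member was called by DESeq2 (0 of 9, with 3.35% of all genes called), and edgeR called 0 (0.862% of all genes). The lowest adjusted p among the members was that of Flt4. Its normalized counts were 3969, 5985, 4267, 2666 and 4553 in Young Sham and 1730.5, 1932 and 3479 in Aged Sham. The Aged Sham libraries other than replicate 15 were below every Young Sham library. The difference was -0.85 on the log2 scale (SE 0.276, DESeq2 adjusted p = 0.0565, edgeR adjusted p = 0.172), and DESeq2 called it without Aged Sham replicate 15 (-1.23, adjusted p = 0.00117) or Young Sham replicate 24 (-0.98, adjusted p = 0.0119).

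None of the other 8 members was called in any fit that left out 1 library. Their log2 fold changes in Aged Sham were 1.08 for Sema3d (SE 0.550, DESeq2 adjusted p = 0.345), 0.59 for Lyve1 (SE 0.306, adjusted p = 0.355), 0.41 for Mmrn1 (SE 0.425) and -0.41 for Prox1 (SE 0.494), followed by 0.32 for Thy1 (SE 0.553), 0.24 for Reln (SE 0.352), 0.15 for Ccl21a (SE 0.295) and -0.05 for Pdpn (SE 0.381). Some of these signs rested on 1 library. Without Aged Sham replicate 14 the estimate was -0.28 for Mmrn1 and 0.22 for Pdpn. Without Aged Sham replicate 13 it was -0.85 for Thy1 and -0.05 for Ccl21a, and without Young Sham replicate 24 it was 0.05 for Pdpn. Mmrn1 normalized counts were 1517, 6651 and 3135 in Aged Sham replicates 13, 14 and 15, and Thy1 counts were 252, 38.1 and 64.9. The library highest for Mmrn1 was the lowest for Thy1. That library, replicate 14, also had the highest FPKM of the platelet genes Ppbp (1772) and Itga2b (74.7) among all 16, and the part of platelet RNA in its Mmrn1 count was not tested.

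Aged Bleo was compared with Young Sham, the contrast the study used for the response of aged ECs. Of the 9 members, 1 was called higher and 0 lower by DESeq2 (6.58% of all genes higher and 3.14% lower). By edgeR 0 were called (5.69% of all genes in either direction). Pdpn had normalized counts of 935, 503, 392 and 243 in Aged Bleo replicates 1, 2, 3 and 5. Replicate 5 lay within the Young Sham range of 199 to 309 and the other 3 above it. Pdpn was 1.09 above Young Sham on the log2 scale (SE 0.347, DESeq2 adjusted p = 0.0220, edgeR adjusted p = 0.0634).

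The Pdpn call in this comparison was lost when Aged Bleo replicate 1 or replicate 2 was left out (adjusted p = 0.256 and 0.0644), and likewise without Young Sham replicate 21 (0.0581), 22 (0.0652) or 25 (0.0506). Replicates 1 and 2 were also the Aged Bleo libraries with the highest Cd68, a macrophage gene, at 62.2 and 42.7 FPKM against 10.6 and 7.34 in replicates 3 and 5. Without both, the log2 fold change of Pdpn was 0.38 (adjusted p = 0.753). In the same comparison the mesothelial list had a median log2 fold change of 3.08, with 3 of 6 genes called higher. Its summed FPKM was 7.20, 1.26, 8.32 and 6.64 in replicates 1, 2, 3 and 5, above the Young Sham range in all but replicate 2. The part of macrophage and mesothelial RNA in the Pdpn values was not tested.

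Sema3d had a larger estimate than Pdpn but was not called. Its normalized counts of 329, 108, 234 and 77.1 put it 1.33 above Young Sham on the log2 scale (SE 0.503, DESeq2 adjusted p = 0.0663), and DESeq2 called it in the fits that left out Aged Bleo replicate 5 (adjusted p = 0.0244) or Young Sham replicate 23 (0.0150). Ccl21a had normalized counts of 49868, 38144, 30208 and 22691, or 0.60 above Young Sham (SE 0.271, adjusted p = 0.143). Its 3 highest Aged Bleo libraries were above the Young Sham range and its lowest was inside it. Prox1 counts of 427, 324, 194 and 404 gave 0.56 (95% interval -0.32 to 1.44) and Reln counts of 809, 746, 479 and 427 gave 0.24 (-0.39 to 0.88). For the remaining members the estimate was 0.40 for Lyve1 (-0.16 to 0.95), 0.30 for Mmrn1 (-0.46 to 1.07), -0.18 for Flt4 (-0.68 to 0.32) and -0.23 for Thy1 (-1.22 to 0.77).

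Against Aged Sham, the controls of their own age, the Aged Bleo libraries gave 0 of 9 members called by DESeq2 (5.83% of all genes). By edgeR 0 were called (0.797% of all genes). The lowest adjusted p-values among the members were those of Pdpn and Flt4. Pdpn had Aged Sham counts of 286, 141 and 284 and was 1.13 higher in Aged Bleo on the log2 scale (SE 0.397, DESeq2 adjusted p = 0.0624). Flt4 was higher by 0.67 (SE 0.289, adjusted p = 0.162). Leaving out Aged Bleo replicate 3 or 5 made Pdpn a call (1.24 and 1.37, with adjusted p-values of 0.0434 and 0.00800), and Flt4 without Aged Sham replicate 15 (1.05, adjusted p = 0.0141). Ccl21a counts in Aged Sham were 32519, 20268 and 24351, and its log2 fold change was 0.45 (95% interval -0.15 to 1.06). Prox1 counts in Aged Sham were 212, 129 and 176, and its log2 fold change was 0.97 (-0.04 to 1.98, adjusted p = 0.289). The estimates for Thy1 (-0.55, interval -1.68 to 0.58), Sema3d (0.25, -0.86 to 1.37), Lyve1 (-0.19, -0.82 to 0.43), Mmrn1 (-0.11, -0.98 to 0.76) and Reln (0.01, -0.71 to 0.73) had intervals that spanned 0.

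The injured groups were then compared directly. Aged Bleo against Young Bleo gave 1 member lower and 0 higher by DESeq2 (0.410% of all genes called lower). By edgeR 0 were called (0.0437% of all genes in either direction). All 9 log2 fold changes were below 0, with a median of -0.73 against 0.02 over all genes tested. Beside this, the fibroblast genes also had lower values, with a summed FPKM of 6.83 to 11.7 in Aged Bleo and 17.8 to 30.9 in Young Bleo, a median log2 fold change of -0.97 and 1 of 6 called lower. The pericyte and smooth muscle list had a median of -1.01 (1 of 6 called lower) and the mesothelial list one of -0.79 (0 of 6 called). Other lists went the other way, with a median of 1.71 for leukocyte genes (1 of 5 called higher) and 1.45 for T cell genes (0 of 6 called). The macrophage list had 0.97 (0 of 8 called) and the platelet list 0.62 (0 of 6 called). The part of RNA from these cells in the members' values was not tested. The member called was Ccl21a. Each of its Aged Bleo libraries, the highest at 49868, was below each Young Bleo library, the lowest at 55494. The log2 fold change was -1.26 (SE 0.286, DESeq2 adjusted p = 0.00355, edgeR adjusted p = 0.131), and by DESeq2 it was called whichever library was left out.

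Reln also did not overlap between the injured groups, at -0.95 on the log2 scale (SE 0.339, DESeq2 adjusted p = 0.167). Pdpn had -0.73 (SE 0.363, adjusted p = 0.448) and was called without Aged Bleo replicate 1 (-1.18, adjusted p = 0.0259). Sema3d had -1.02 (SE 0.524, adjusted p = 0.475) and Prox1 -0.72 (SE 0.473, adjusted p = 0.646), and both overlapped between the groups, as did Thy1, at -0.82 (SE 0.531, adjusted p = 0.641), and Mmrn1, at -0.68 (SE 0.411, adjusted p = 0.599). The smallest differences were those of Lyve1, at -0.15 (95% interval -0.73 to 0.43), and Flt4, at -0.40 (-0.92 to 0.12). Without the 2 Aged Bleo libraries with the highest Cd68, DESeq2 called Ccl21a (-1.68, adjusted p = 2.68e-05), Pdpn (-1.44, adjusted p = 0.00285) and Reln (-1.39, adjusted p = 0.0132) lower, beside 6.53% of all genes called in either direction in that fit.

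Whether the response to bleomycin itself differed with age was tested as a difference of responses, Aged Bleo against Aged Sham minus Young Bleo against Young Sham. DESeq2 called 0 of 9 members (0.381% of all genes), and edgeR called 0 (0.00546% of all genes). Ccl21a had a difference of -1.41 on the log2 scale (SE 0.411, DESeq2 adjusted p = 0.0970, edgeR adjusted p = 0.465), and DESeq2 called it without Aged Bleo replicate 1 (-1.63, adjusted p = 0.0226) or Young Bleo replicate 20 (-1.57, adjusted p = 0.0158). Sema3d had -2.10 (SE 0.760, adjusted p = 0.297) and Reln -1.19 (SE 0.489, adjusted p = 0.413). Thy1 had -1.14 (SE 0.767), Mmrn1 -1.09 (SE 0.591), Lyve1 -0.74 (SE 0.426), Pdpn -0.69 (SE 0.527) and Prox1 -0.32 (SE 0.684). The estimate was below 0 for all members except Flt4, at 0.45 (95% interval -0.30 to 1.20). It turned above 0 for Thy1 without Aged Sham replicate 13 (0.03) and for Prox1 without Young Bleo replicate 20 (0.13). A smaller response in aged mice was not called for any member in the fit of all 16 libraries. When the 2 Aged Bleo libraries with the highest Cd68 were left out, an alternative chosen after seeing the data, Ccl21a (-1.83, SE 0.418, DESeq2 adjusted p = 0.00234) and Reln (-1.63, SE 0.524, adjusted p = 0.0497) were called, beside 3.80% of all genes in that fit. In the difference of responses over all libraries the mesothelial list had a median of -4.84, with 2 of 6 genes called lower, and the fibroblast list a median of -1.23, with 1 of 6 called lower. The part of mesothelial and fibroblast RNA in the members' estimates was not tested.

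**Figure D3:**
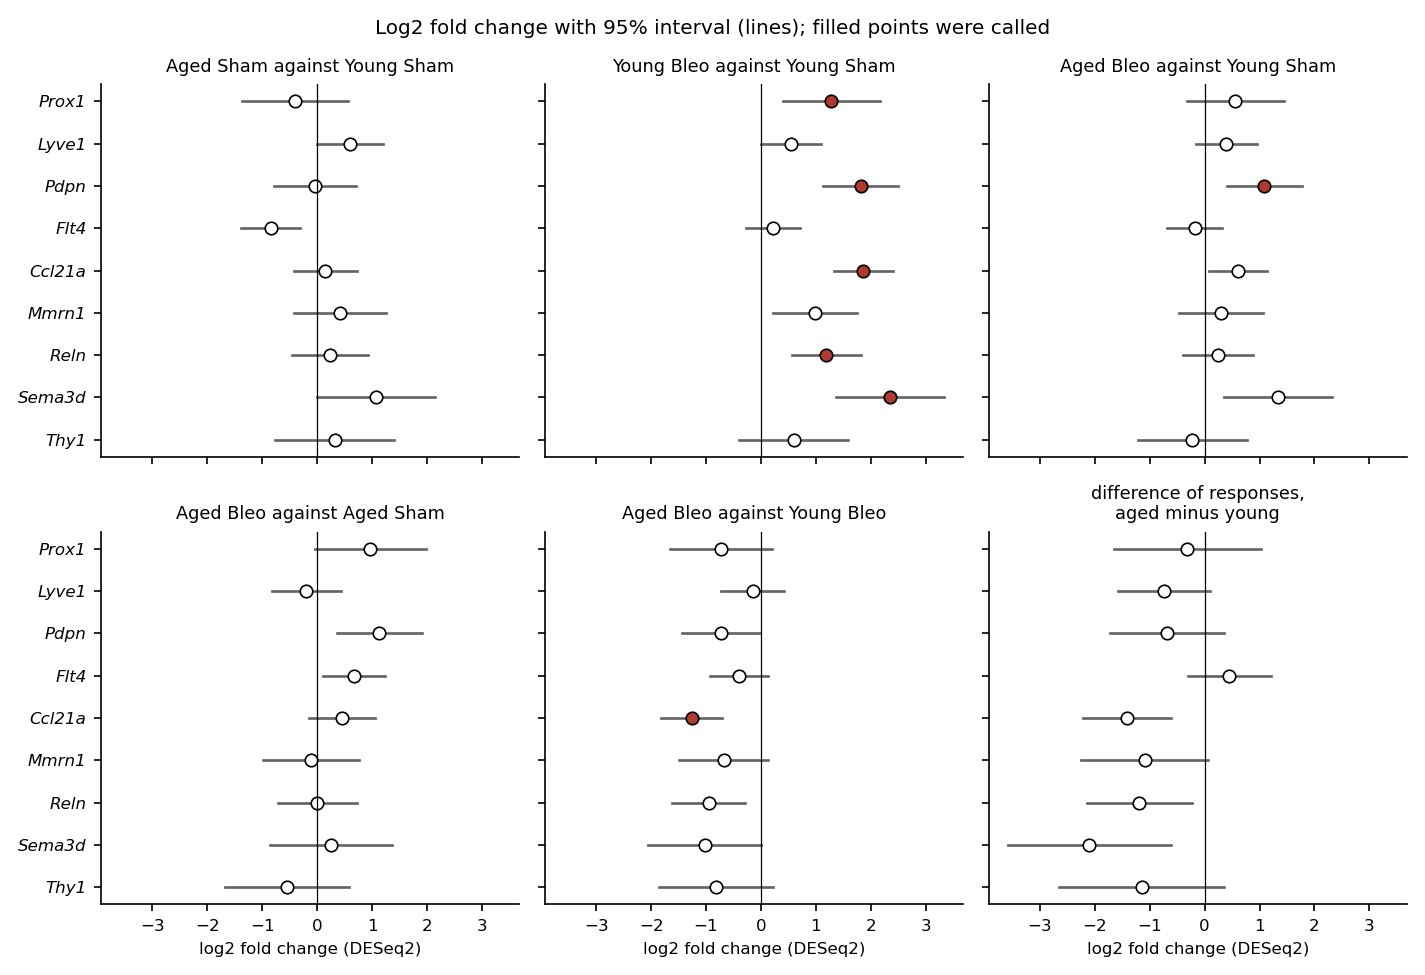
Log2 fold change of each member with its 95% interval in 5 comparisons and in the difference of responses, with filled points for genes called by DESeq2. In Young Bleo against Young Sham 5 points are filled, and against the same controls Aged Bleo has 1, Pdpn.

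Relations between the members from library to library were then measured. With group means removed from log2(normalized count + 1), Pearson's r with Prox1 over 16 libraries was 0.48 for Flt4 (Spearman's rho 0.51), 0.39 for Lyve1 (0.32), 0.30 for Mmrn1 (0.33), 0.28 for Reln (0.31), 0.24 for Sema3d (0.25), 0.05 for Pdpn (-0.02), 0.03 for Ccl21a (0.06) and -0.06 for Thy1 (-0.12). None of these 8 relations passed adjustment (permutation within groups, lowest adjusted p = 0.626 for r and 0.501 for rho). Without the 2 libraries farthest from the median of Prox1, both Young Sham, r for Flt4 was 0.37, and the r of every other member but Pdpn, Ccl21a and Thy1 was also lower. Over all 36 pairs of members, r was above 0 for 25 and none passed at 0.05.

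The pairs with the highest positive r were Pdpn with Ccl21a (r = 0.81, rho = 0.82) and Reln with Ccl21a (r = 0.72, rho = 0.73), each with a permutation adjusted p of 0.0538 for r over the 36 pairs. The permutation adjusted p for rho was 0.108 and 0.0961. For Pdpn with Ccl21a r was 0.73 without Aged Bleo replicates 1 and 5, the libraries farthest from the Pdpn median, and for Reln with Ccl21a it was 0.63 without Young Bleo replicate 17 and Aged Bleo replicate 1, the farthest from the Ccl21a median. Mmrn1 and Thy1 ran in opposite directions (r = -0.81, rho = -0.74, permutation adjusted p = 0.0538 for r and 0.108 for rho), and r was -0.67 without Aged Sham replicates 13 and 14.

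**Figure D4:**
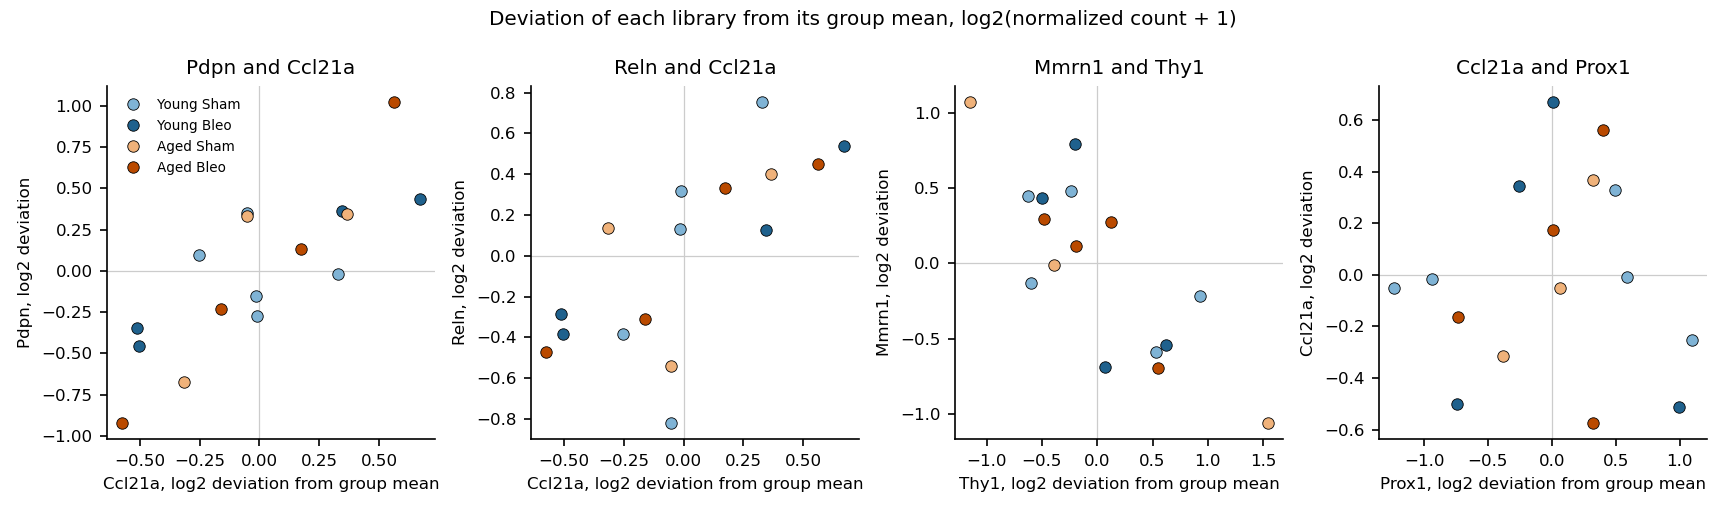
Deviation of each of the 16 libraries from its group mean, on the log2(normalized count + 1) scale, for 4 pairs of members, coloured by group. Points rise together for Pdpn with Ccl21a (r = 0.81) and Reln with Ccl21a (r = 0.72), fall for Mmrn1 with Thy1 (r = -0.81), and show no slope for Ccl21a with Prox1 (r = 0.03).

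Prox1 was then set beside the 15381 other genes that averaged 20 or more normalized counts. The 10 whose group-centred levels were most like Prox1 over the 16 libraries were Cnot2 (r = 0.84), Rnf157 (0.83), Iqgap1 (0.82), Tmem131 (0.82), Stk10 (0.80), Ywhag (0.80), Dhdh (0.79), Slc12a2 (0.79), AC123072.1 (0.78) and Kansl3 (0.78). No member was among them. Flt4, the closest member, ranked 739. Prox1 was counted with as few as 69 reads in a library, and these values are given as a description without a test.

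A further list for lymphatic development, signalling, valves and surface held 40 gene symbols, with VEGF-D entered under both Vegfd and its older name Figf. Of these symbols 38 were found in the table, all but Vegfd and Ccl21c, and 37 were tested by DESeq2, all but Dab1. In Young Bleo against Young Sham, 13 were called higher and 8 lower, beside the 7.57% and 6.35% of all genes given above. By edgeR 10 were called higher and 6 lower (5.69% and 4.09% of all genes), without Vegfc, Foxc2, Maf (edgeR adjusted p = 0.0754), Ackr2 (0.0507) and Stab1 (0.0698). Many of these genes are also used by blood ECs, so the list is less specific than the 9 members.

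Among the ligands, Vegfc, the main lymphatic growth factor, had a log2 fold change of 0.82 (SE 0.296, DESeq2 adjusted p = 0.0403, edgeR adjusted p = 0.0765) in Young Bleo. Normalized counts were 2349.8 to 3183 in Young Sham and 3141 to 7439.5 in Young Bleo, so the groups overlapped, and Vegfc was called in 3 of 9 fits that each left out 1 library. Figf (VEGF-D) was not called in Young Bleo, at 35.4 to 176 against 71.8 to 259. Adm, which encodes the lymphangiogenic peptide adrenomedullin, rose by 2.61 (SE 0.801, DESeq2 adjusted p = 0.0113), from 147 to 219 in Young Sham to between 420.4 and 2551 in Young Bleo. Without Young Bleo replicate 17 it was 1.79 higher and not called (adjusted p = 0.156).

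Receptors and co-receptors moved in both directions. Nrp2, the neuropilin that binds VEGF-C, rose from 560.3 to 967 normalized counts in Young Sham to 2759 to 3323 in Young Bleo (log2 fold change 1.95, SE 0.268, DESeq2 adjusted p = 2.41e-10). Itga9, the integrin chain needed for lymphatic valves, rose by 0.93 (SE 0.205). Kdr (VEGFR-2) fell by 1.64 (SE 0.398) and Nrp1, the neuropilin of blood vessels, by 1.33 (SE 0.214). The adrenomedullin receptor genes Calcrl and Ramp2 fell by 0.89 (SE 0.264, not called without Young Bleo replicate 19, adjusted p = 0.0553) and 0.76 (SE 0.198), and Clec1b, which encodes the podoplanin receptor CLEC-2 of platelets, by 1.34 (SE 0.362), where the platelet list was also lower in Young Bleo than in Young Sham in every library. Ccr7, the CCL21 receptor, ranged from 1.10 to 124 normalized counts in Young Bleo and from 20.8 to 105 in Young Sham and was not called.

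Of the 9 transcription factors, 5 were called higher in Young Bleo and 1 lower. Foxc2, needed for valves, was 64.3 to 158 in Young Sham and 179 to 372 in Young Bleo (log2 fold change 1.23, SE 0.431, DESeq2 adjusted p = 0.0315, edgeR adjusted p = 0.0750), and it was called in 5 of 9 fits that each left out 1 library. Tbx1 rose by 1.52 (SE 0.393), Maf by 1.18 (SE 0.420, called in 4 of 9 such fits), Nfatc1 by 0.87 (SE 0.208) and Hhex by 0.71 (SE 0.194), while Gata2 fell by 0.92 (SE 0.218). Sox18 and Nr2f2, which act upstream of Prox1 in development, were not called, at 44977 to 59303 and 45606 to 58636 normalized counts in Young Sham and Young Bleo for Sox18 and 482 to 863 and 518 to 871 for Nr2f2.

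Among the valve and surface genes, Fxyd6, a regulator of the sodium pump, rose by 2.03 (SE 0.269, DESeq2 adjusted p = 4.43e-11), Nts, the neurotensin gene, by 1.85 (SE 0.567, not called without Young Bleo replicate 17, adjusted p = 0.0546) and Gja4, the connexin-37 gene, by 1.47 (SE 0.322). Cldn11, a claudin of lymphatic valves, was at 0 to 4.10 normalized counts in Young Sham and at 21.8 to 39.9 in Young Bleo and was called higher. Ackr2, the chemokine-scavenging receptor, fell by 0.60 (SE 0.189) and the scavenger receptor Stab1 by 0.54 (SE 0.186), called in 6 and 3 of 9 fits that each left out 1 library.

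**Figure D5:**
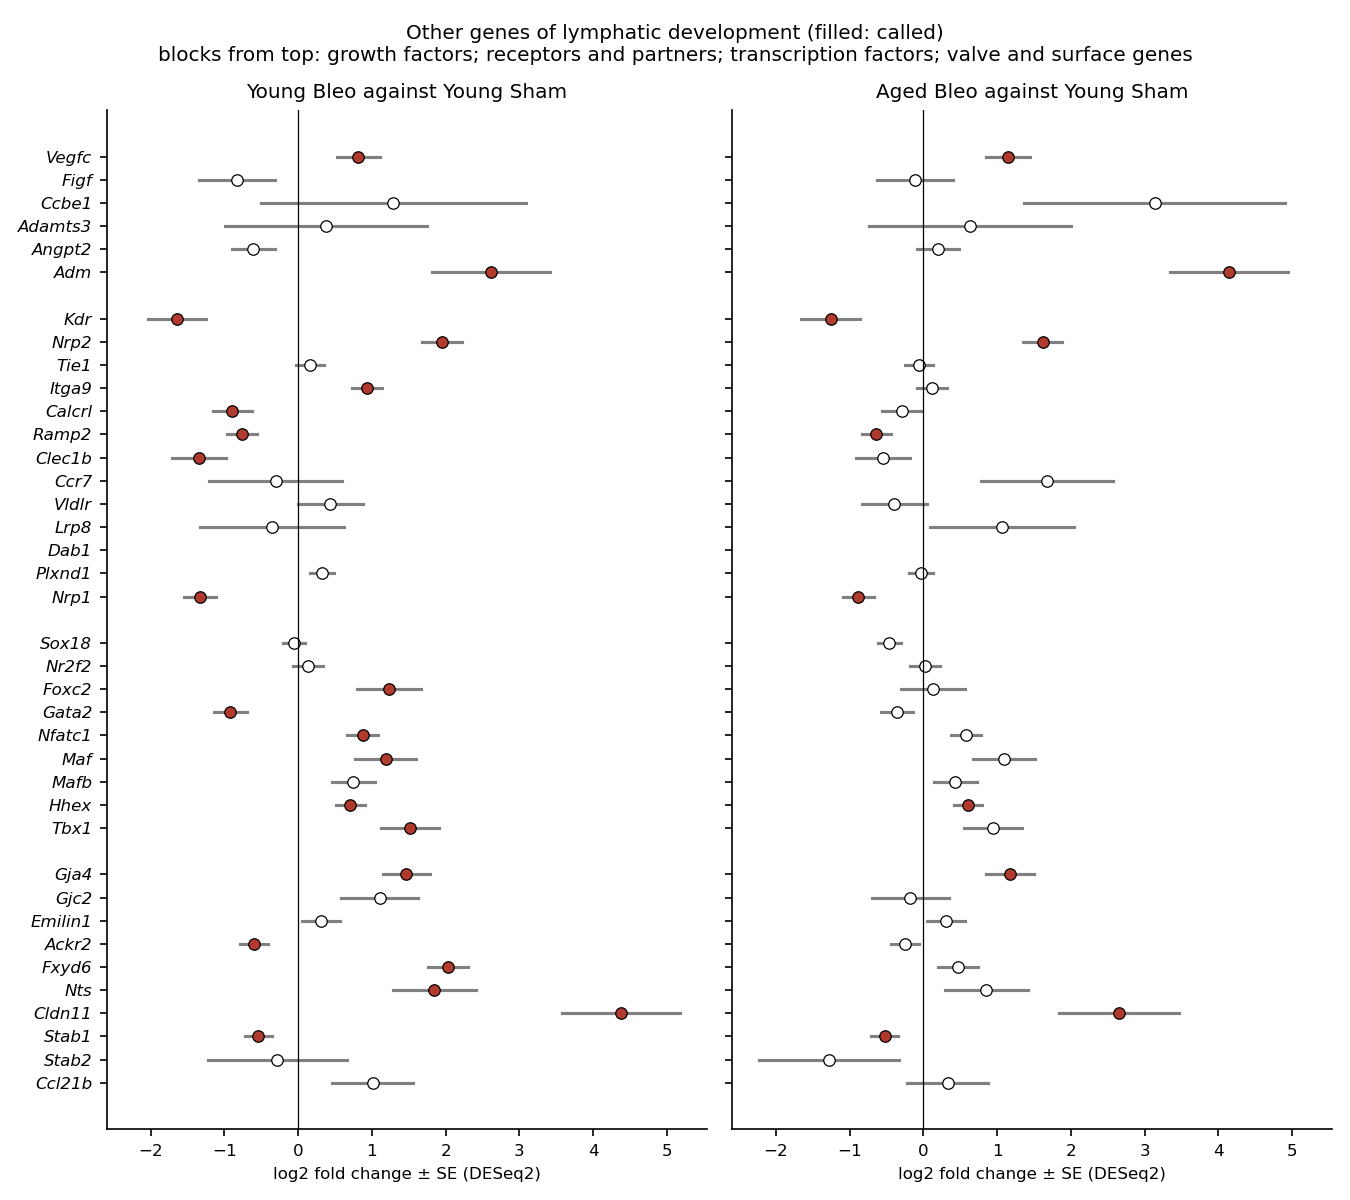
Log2 fold change ± SE of the other lymphatic genes in Young Bleo (left) and Aged Bleo (right), each against Young Sham, with filled points for genes called by DESeq2 (Dab1, not tested, has no point). Filled points number 21 on the left and 10 on the right, and both panels share the same controls.

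In Aged Bleo against Young Sham, 6 of these genes were called higher (Vegfc, Adm, Nrp2, Hhex, Gja4 and Cldn11) and 4 lower (Kdr, Ramp2, Nrp1 and Stab1), beside 6.58% and 3.14% of all genes. Among the marker lists, 5 of 5 leukocyte genes (median 3.73) and 5 of 8 macrophage genes (3.15) were called higher. Called lower were 6 of 6 pericyte and smooth muscle genes (-2.15) and 4 of 6 fibroblast genes (-1.22). The part of RNA from these cells in the listed genes was not tested. Vegfc rose by 1.14 (SE 0.296, DESeq2 adjusted p = 0.00262), with every Aged Bleo library, at 3721 to 8806, above the Young Sham range. Adm rose by 4.14 (SE 0.801), though its Aged Bleo range of 218 to 6537 met that of Young Sham. Nrp2 rose by 1.61 (SE 0.268) and Gja4 by 1.17 (SE 0.322). Adm, Nrp2 and Nrp1 were called in all 9 fits that each left out 1 library, Vegfc in 8, Gja4, Cldn11 and Ramp2 in 7, Kdr in 6, Hhex in 4 and Stab1 in 2. By edgeR 4 were called higher and 1 lower (5.69% of all genes in either direction), without Hhex (edgeR adjusted p = 0.0557), Cldn11 (0.118), Kdr (0.0900), Ramp2 (0.0560) and Stab1 (0.0987).

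Against Aged Sham 7 of the 37 were called, beside 5.83% of all genes, with Nrp2 higher by 1.32 (SE 0.305), Adm by 3.39 (SE 0.911), Hhex by 0.82 (SE 0.222), Gja4 by 1.52 (SE 0.367) and Nts by 2.07 (SE 0.663), while Figf fell by 2.21 (SE 0.581) and Clec1b by 2.01 (SE 0.412). Of 7 fits that each left out 1 library, Nrp2, Gja4 and Clec1b were called in all, Hhex in 6 (not without Aged Bleo replicate 1), Figf in 6 (not without Aged Sham replicate 13), Adm in 4 and Nts in 2, and edgeR called Nrp2 and Clec1b alone (0.797% of all genes, edgeR adjusted p for Nts 0.143). The platelet list moved with Clec1b, with 5 of 6 genes called lower, a median log2 fold change of -2.55 and a summed FPKM of 634 to 3417 in Aged Sham against 66.1 to 487 in Aged Bleo. The part of platelet RNA in the Clec1b fall was not tested. Without Aged Bleo replicates 1 and 2, the libraries with the highest Cd68, 1 gene was called against each of the Sham groups, Nrp2 higher than in Young Sham (0.98, SE 0.236, beside 2.29% of all genes) and Clec1b lower than in Aged Sham (-1.50, SE 0.387, beside 0.738%).

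In Aged Sham against Young Sham 2 of the 37 genes were called by DESeq2, both higher, beside 3.35% of all genes in either direction, and edgeR called 0 (0.862% of all genes). Figf was 71.8 to 259 in Young Sham and 493 to 1039 in Aged Sham (log2 fold change 2.09, SE 0.556, DESeq2 adjusted p = 0.0100, edgeR adjusted p = 0.0871). Clec1b was 3992 to 7116 and 8967 to 22691 (1.46, SE 0.394, DESeq2 adjusted p = 0.0112, edgeR adjusted p = 0.0881). Figf was not called without Aged Sham replicate 13 (1.67, adjusted p = 0.139), nor Clec1b without Aged Sham replicate 14 (0.91, adjusted p = 0.293). The summed platelet genes were also higher in every Aged Sham library than in any Young Sham library, and the part of platelet RNA in the Clec1b difference was not tested. The mesothelial list had a median log2 fold change of 4.18 (3 of 6 genes called higher) and the leukocyte list one of 2.16 (3 of 5), with leukocyte genes summing to 1.93 to 4.46 FPKM in Young Sham and 7.05 to 17.5 in Aged Sham, and their part in the Figf difference was not tested.

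In Aged Bleo against Young Bleo, Fxyd6 and Itga9 were called lower by DESeq2, beside 0.410% of all genes, and edgeR called 0 of the list. Fxyd6 was 4294 to 7646 in Young Bleo and 1354 to 3622 in Aged Bleo (log2 fold change -1.56, SE 0.283, DESeq2 adjusted p = 4.97e-05, edgeR adjusted p = 0.0571). Itga9 was 1057 to 1618 and 679 to 899 (-0.82, SE 0.215, DESeq2 adjusted p = 0.0212, edgeR adjusted p = 0.222). Ccl21a fell in the same comparison. In the difference of responses, where 0.381% of all genes were called and the mesothelial and fibroblast lists had the medians below 0 given above, Fxyd6 was the 1 gene of the further lists called (-1.72, SE 0.408, DESeq2 adjusted p = 0.0156, edgeR adjusted p = 0.336), and the call was lost without Aged Sham replicate 15 (adjusted p = 0.0523), Young Bleo replicate 17 (0.0651) or Young Bleo replicate 19 (0.0711). Without the 2 Aged Bleo libraries with the highest Cd68, 8 genes of the list were called against Young Bleo (Fxyd6, Itga9, Adm, Nrp2 and Gja4 lower and Angpt2, Clec1b and Gata2 higher) and 4 in the difference of responses (Fxyd6, Adm and Nrp2 below 0 and Nrp1 above it), beside the 6.53% and 3.80% of all genes given above. Itga9 was called in 2 of 8 fits that each left out 1 library, and Fxyd6 in all 8.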

How the data were processed

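RNA-seq libraries of sorted lung ECs from 16 mice were analysed. Per the labels and the study's methods, the authors aligned reads to mm10 with STAR 2.5.2b and counted them per gene with featureCounts of Subread. The labels name a SMART-Seq v4 and Nextera preparation, whereas the methods name a TruSeq poly(A) preparation, so the chemistry behind the values is uncertain. The annotation release, strand setting and treatment of reads that map to several genes were not given in the sources used here. The authors deposited raw counts and FPKM (fragments per kilobase and mega-fragment) for each gene and library in a merged table. Gene counts summed to 40.3% to 44.7% of the total that the FPKM values imply. Groups were taken from the sample titles, and the 30-day interval from the methods.

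Counts were tested with DESeq2, the tool named in the study's methods, here in version 1.42.0 (R 4.3.3) with a Wald test, all 16 libraries and 4 groups in 1 fit and Benjamini-Hochberg adjustment over all genes tested. Genes were called at an adjusted p of at most 0.05 and a log2 fold change of at least 0.5 in size. The alternatives were edgeR 4.0.16 (quasi-likelihood, TMM), TMM size factors, a filter of 10 counts in at least 3 libraries, no Cook's distance filter, the compared groups alone, and each library left out in turn. The scripts were tested on simulated data. FPKM served for levels between genes and for marker lists, normalized counts for libraries. Correlations used 100000 permutations within groups. Replicate numbers are not shared between groups, so no pairing was used. Sequences come from GENCODE transcripts and RefSeq promoters on GRCm38, the same assembly as mm10; promoters of Lyve1 and Thy1 were not used here.

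The 9 genes, the further lists and the tests were chosen with earlier results of these data known. All members were named in every comparison. Of the further lists, genes called in any comparison were named, as well as Vegfc, Vegfd, Sox18, Nr2f2 and Foxc2, and Ccr7 was named after its values were seen. The 10 genes closest to Prox1 were named by correlation among genes averaging 20 or more normalized counts.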

Additional observations from a re-analysis of the deposited data

Results flagged for a closer look

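The bleomycin response of Fxyd6, which encodes a regulator of the sodium pump, was called different between ages by DESeq2 but not by edgeR. Mean normalized counts were 1587 ± 352 (SD, n = 5) in Young Sham, 6504 ± 1551 (n = 4) in Young Bleo, 1767 ± 331 (n = 3) in Aged Sham and 2203 ± 991 (n = 4) in Aged Bleo. The difference of responses, aged minus young, was -1.72 on the log2 scale (SE 0.408, DESeq2 adjusted p = 0.0156), while edgeR gave an adjusted p of 0.336. In the same difference the mesothelial list had a median of -4.84 (2 of 6 genes called lower) and the fibroblast list one of -1.23 (1 of 6), and the part of RNA from these cells in the Fxyd6 value was not tested. All 4 Young Bleo libraries were above all 4 Aged Bleo libraries. The DESeq2 call was made in 13 of 16 fits that each left out 1 library, and was lost without Aged Sham replicate 15 (adjusted p = 0.0523), Young Bleo replicate 17 (0.0651) or Young Bleo replicate 19 (0.0711). No library stood apart from its group among the 27 combinations of member and group that were large enough to be examined, where chance alone would mark about 1 in 20.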

How the results depend on the processing

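Of 810 alternative values for the log2 fold changes of the 9 members, 756 kept their direction and their side of the threshold, 17 were newly called, 13 lost a call, and 24, all of values not called, changed sign. With edgeR, members called numbered 0 in Aged Bleo against Young Sham and 0 in Aged Bleo against Young Bleo, and other lymphatic genes called numbered 0 in Aged Sham against Young Sham, 5 in Aged Bleo against Young Sham, 2 in Aged Bleo against Aged Sham, 0 in Aged Bleo against Young Bleo and 0 in the difference of responses. In an alternative chosen after seeing the data, without the 2 Aged Bleo libraries with the highest Cd68, members called numbered 0 in Aged Bleo against Young Sham, 3 in Aged Bleo against Young Bleo and 2 in the difference of responses, and other lymphatic genes 1 in Aged Bleo against Young Sham, 1 in Aged Bleo against Aged Sham, 8 in Aged Bleo against Young Bleo and 4 in the difference of responses. Over all genes that fit called 2.29%, 0.738%, 6.53% and 3.80% against Young Sham, Aged Sham and Young Bleo and in the difference, where the fit of all libraries called 0.381% in the difference and 5.83% against Aged Sham. With each library left out in turn, members called ranged from 0 to 1 in Aged Sham against Young Sham, 4 to 6 in Young Bleo against Young Sham, 0 to 2 in Aged Bleo against Young Sham, 0 to 1 in Aged Bleo against Aged Sham, 1 to 2 in Aged Bleo against Young Bleo and 0 to 1 in the difference of responses. Other lymphatic genes ranged from 1 to 3, 15 to 21, 4 to 10, 4 to 8, 1 to 4 and 0 to 3 in the same order. The share of all genes called in these fits is not given here, so the ranges cannot be set against it. Pearson's r with Prox1 ranged from 0.24 to 0.52 for Lyve1, -0.087 to 0.19 for Pdpn, 0.28 to 0.61 for Flt4, -0.11 to 0.25 for Ccl21a, 0.18 to 0.49 for Mmrn1, 0.01 to 0.46 for Reln, 0.05 to 0.37 for Sema3d and -0.24 to 0.073 for Thy1, and for Thy1 it was 0.10 without the 2 libraries farthest from the median. The causes were not tested. No paired analysis was possible because the groups share no replicate numbers. Among the 9 members, Sema3d and Thy1 had the lowest counts, with as few as 32 and 33 in a library.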
